A study of Homo sapiens with 6 samples.

Results

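The IκB kinase (IKK) complex was represented on the array by 5 peptides, taken as every peptide whose listed name starts with IKK-, out of 300 printed. They were the peptide from IKK-alpha (CHUK, O15111) at T23, those from IKK-beta (IKBKB, O14920) at Y188 and Y199, and those from IKK-gamma (IKBKG, also called NEMO, Q9Y6K9) at S31 and S43. The cells were THP-1, a human monocytic leukaemia line, made macrophage-like and adherent with the phorbol ester PMA and then rested. The groups were unstimulated cells, cells given recombinant human IL-17A/F (20 ng/ml, 15 min; IL-17 here) and cells given recombinant human IL-32γ at the same dose and time (IL-32 here), with 2 biological replicates each. PMA was given to all groups, the unstimulated one included, and 1 cell line was used throughout. Lysates met printed peptides, and phosphate on the peptides was stained with a fluorescent phosphoprotein dye. Markers of the macrophage state are not read by such an array.

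IKK is the kinase complex that turns NF-κB on. IKK-alpha and IKK-beta are its catalytic subunits and IKK-gamma is its regulatory subunit, which binds ubiquitin chains assembled below cytokine and Toll-like receptors. The active complex phosphorylates the IκB proteins, which are then degraded, and NF-κB dimers move to the nucleus. IKK-beta is activated by phosphorylation of serines in its activation loop, and none of the 5 peptides is listed at those serines. T23 of IKK-alpha is known as a target of Akt, and Y188 and Y199 of IKK-beta, 11 residues apart in the kinase domain, as targets of Src. A signal on such a peptide reports kinases in the lysate that phosphorylate the peptide, and it is no direct reading of IKK activity.

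The arrays differed in overall brightness and less in signal relative to background. Median foreground over the spots ran from 15487 to 25672, and the 80th percentile of net signal from 8135 to 14292. The median ratio of foreground to local background ran from 1.16 to 1.34 over the 6 arrays, and 26.1% to 35.4% of the 900 spots of an array were dimmer than their own background. Median background at the first listed spot of each peptide ranged from 6978 on the IL-32 array of replicate 1 to 22914 on the IL-17 array of replicate 2.

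The catalytic subunits gave signal and the regulatory subunit gave none above background. All 18 spots of IKK-beta Y199 and all 18 of IKK-beta Y188 were brighter than their local background, and so were 17 of 18 spots of IKK-alpha T23. The exception was 1 spot on the IL-32 array of replicate 2, with a ratio of foreground to background of 0.898. None of the 18 spots of IKK-gamma S31 and none of the 18 of IKK-gamma S43 passed its background. Over the whole array, 158 of the 298 human peptides had all spots above background and 53 had none. By the median ratio over 18 spots, IKK-beta Y199 was at 1.70 and ranked 34 from the top of 298. IKK-beta Y188 was at 1.40 (rank 123), IKK-alpha T23 at 1.32 (rank 141), IKK-gamma S31 at 0.680 and IKK-gamma S43 at 0.501. These ranks set different probes side by side and are no measure of how strongly each site is phosphorylated in the cells.

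**Figure D1:**
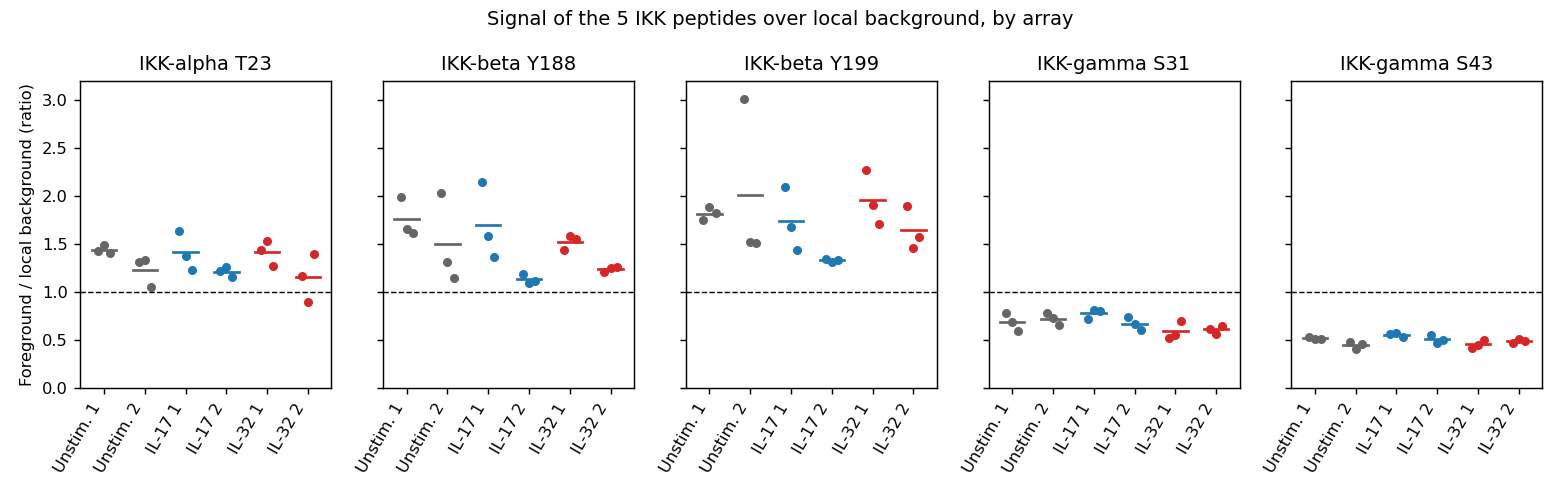
Ratio of foreground to local background (y axis, linear) for the 3 spots of each IKK peptide on each of the 6 arrays (x axis, group and replicate number), with a bar at the mean of the spots. The dashed line marks a ratio of 1. IKK-beta lies above it on every spot, IKK-alpha on 17 of 18, and both IKK-gamma peptides lie below it throughout.

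The main question was whether 15 min of IL-32 or IL-17 altered phosphorylation of these peptides. With limma, 0 of the 5 IKK peptides passed the adjusted threshold in any of the 3 comparisons, and neither did any other peptide (0% of 298 called in each). At an unadjusted p under 0.05, 1 of the 5, IKK-beta Y199, was below that level for IL-32 against unstimulated cells and for IL-32 against IL-17. That compares with 1.34% of all 298 peptides in each of these comparisons. For IL-17 against unstimulated cells none of the 5 and none of the 298 reached it (0%). The smallest p that an exact two-sided permutation of 2 and 2 arrays allows is 0.333.

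IKK-beta Y199 was the member that stood highest with IL-32. On the log2 scale after normalization it was at 12.02 and 11.80 on the unstimulated arrays, 11.93 and 11.88 on the IL-17 arrays, and 12.12 and 12.33 on the IL-32 arrays. The values were 1.04 and 0.817 unstimulated, 0.941 and 0.899 with IL-17, and 1.17 and 1.37 with IL-32 in the authors' deposited table, which divides net signal by each array's 80th percentile. On both scales the IL-32 arrays lay above all 4 others. The same held for 7.38% of the 298 peptides on the normalized scale and 1.01% (3 peptides) on that of the authors. On the authors' scale 87 and 90 printed peptides sat at the floor of 0.01 on the IL-32 arrays of replicates 1 and 2. Such peptides cannot lie above the other arrays, which lowers that share.

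The fitted log2 difference of IKK-beta Y199 between IL-32 and unstimulated cells was 0.32 ± 0.11 (SE; 95% interval 0.037 to 0.60). The adjusted p was 0.996 (limma) and the unadjusted p 0.033. Against IL-17 the difference was also 0.32 ± 0.11 (interval 0.043 to 0.60), with an adjusted p of 0.997 and an unadjusted p of 0.031. Counted from the most positive of 298, these differences ranked 4 and 5, and by absolute size 6 and 8. With IL-17 against unstimulated cells the difference was -0.01 ± 0.11 (interval -0.29 to 0.27; adjusted p = 0.997). The 2 comparisons with unstimulated cells share those arrays, and both comparisons of IL-32 share the IL-32 arrays.

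**Figure D2:**
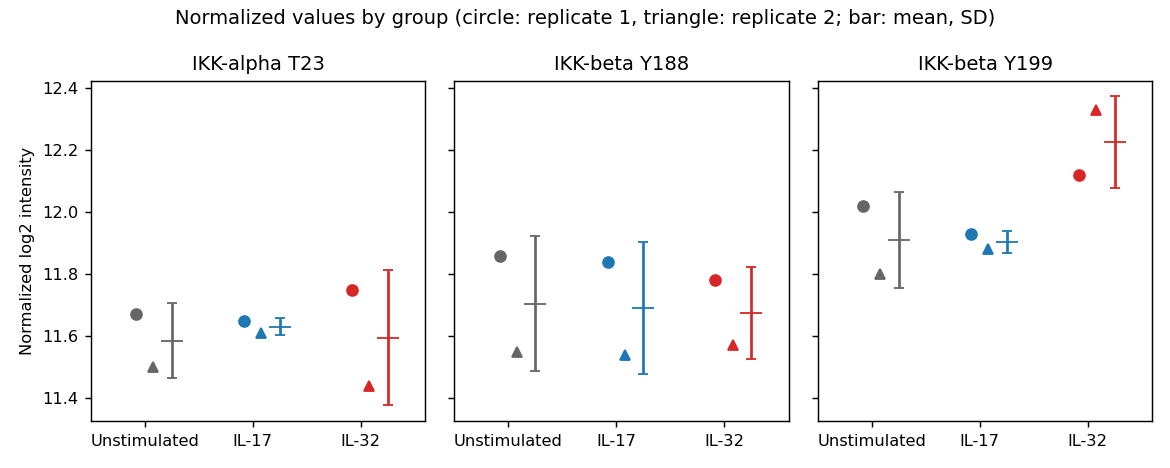
Normalized log2 intensity (y axis) of the 3 IKK peptides above background in the 3 groups; circles are replicate 1, triangles replicate 2, and the bar beside them is the mean with its SD (n = 2 arrays). For IKK-beta Y199 the IL-32 arrays (12.12 and 12.33) lie above the other 4, and for IKK-beta Y188 and IKK-alpha T23 the groups overlap.

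The size of this difference depended on which spots were used, on the replicate and on how background was handled. Without the first listed spot of each peptide the difference of IKK-beta Y199 from unstimulated cells was 0.07 ± 0.16, without listed spot 2 it was 0.57 ± 0.12, and without listed spot 3 it was 0.32 ± 0.18. With the median of the spots it was 0.05 ± 0.16. Dividing foreground by local background, in place of subtracting it, gave 0.05 ± 0.10, while the authors' deposited values gave 0.46 ± 0.16. Within replicate number 1 the IL-32 array exceeded the unstimulated one by 0.10, and within number 2 by 0.54. Leaving out the unstimulated array of replicate 2 gave 0.20 ± 0.13, and leaving out the IL-32 array of replicate 2 gave 0.22 ± 0.13.

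The spots can be followed 1 by 1. At the first listed spot of IKK-beta Y199, foreground minus background was 6099 and 6274 on the unstimulated arrays, 4517 and 8501 on the IL-17 arrays, and 9389 and 21892 on the IL-32 arrays. Both IL-32 values were above all others there. At the second it was 18172 and 13722 unstimulated, 11583 and 6909 with IL-17, and 7147 and 12044 with IL-32. At listed spot 3 it was 20202 and 11351, then 10295 and 6526, then 18784 and 14530 in the same order. At these other spots the IL-32 and unstimulated arrays overlapped or the unstimulated ones were higher.

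Local background at the first spot differed between the arrays. Beneath it, background was 8140 and 3118 on the unstimulated arrays, 4144 and 24698 on the IL-17 arrays, and 7387 and 24419 on the IL-32 arrays. At that spot the ratio of foreground to background in replicate 2 was 3.01 unstimulated and 1.90 with IL-32, the reverse order of the net signals. In replicate 1 it was 1.75 unstimulated and 2.27 with IL-32, the same order as the net signals. The part of background in the difference was not tested beyond these values. As a mean over the 3 spots, the ratio of IKK-beta Y199 was 1.92 ± 0.14 unstimulated, 1.53 ± 0.29 with IL-17 and 1.80 ± 0.23 with IL-32 (SD, n = 2 each), so that unstimulated and IL-32 arrays overlapped.

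**Figure D3:**
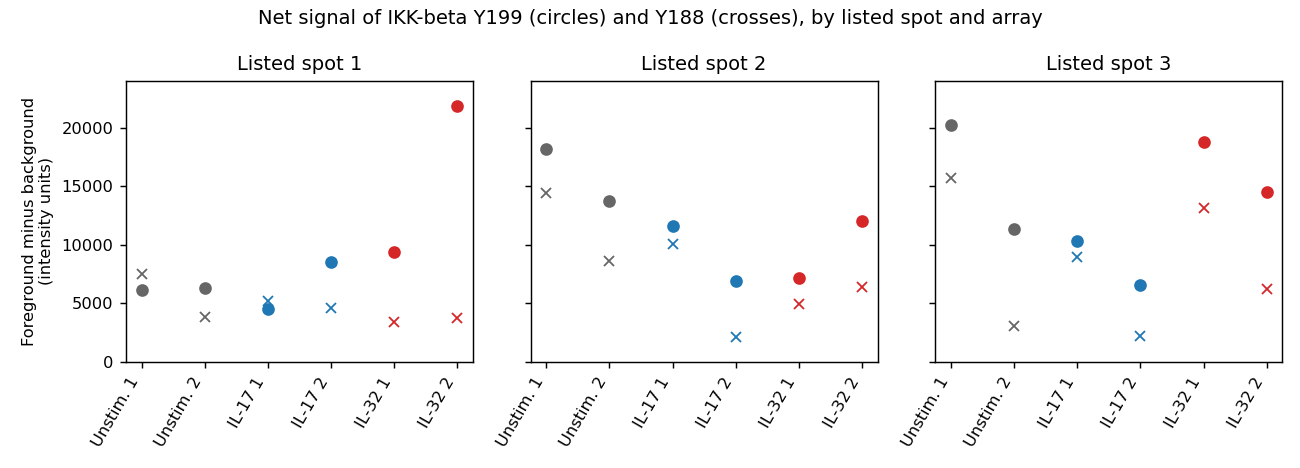
Foreground minus local background (y axis, intensity units, not normalized between arrays) of IKK-beta Y199 (circles) and Y188 (crosses) on the 6 arrays, with 1 panel for each of the 3 listed spots. The IL-32 arrays lie highest for Y199 at listed spot 1 (9389 and 21892) and not at spots 2 and 3.

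**Figure D4:**
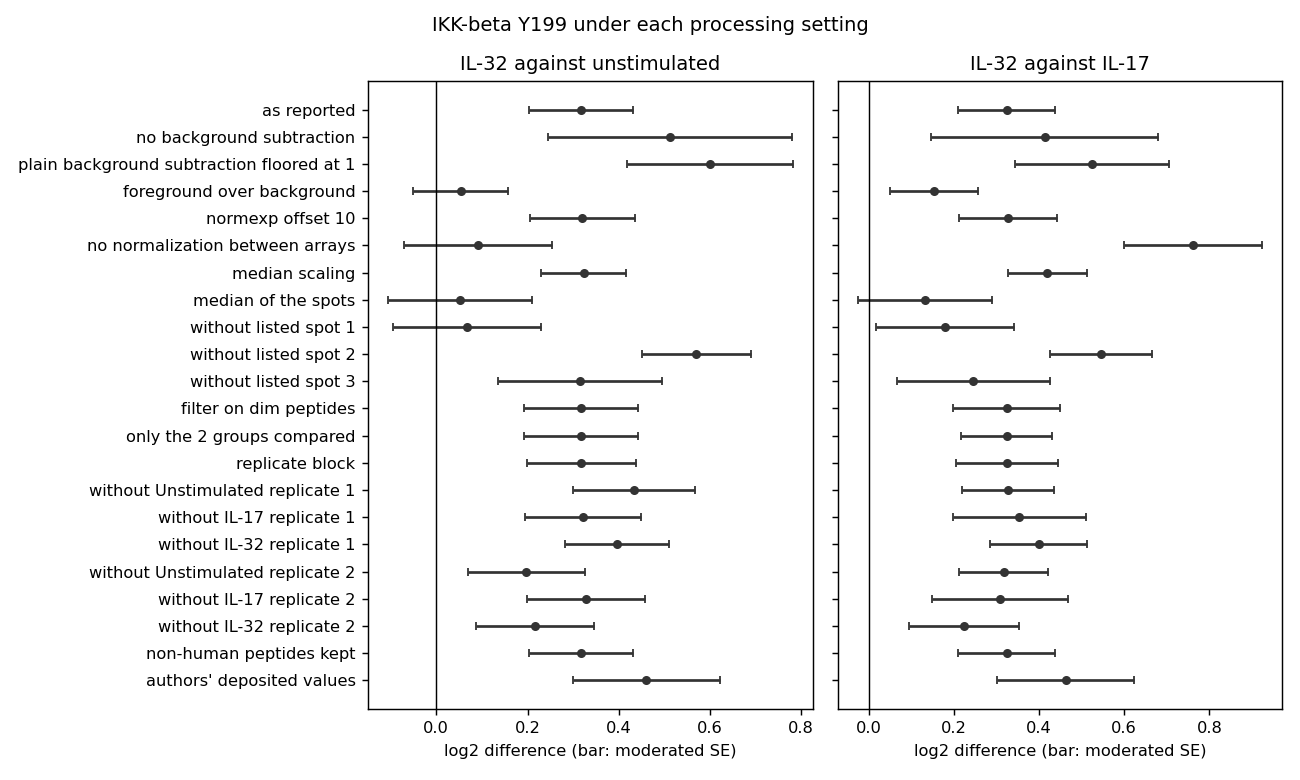
Log2 difference of IKK-beta Y199 (x axis, bar: moderated SE) for IL-32 against unstimulated cells and against IL-17 under each processing setting (y axis). All values lie above 0; against unstimulated cells the lowest are 0.05 (median of the spots, and foreground over background) and the highest is 0.60 (plain subtraction).

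IKK-beta Y188, a nearby tyrosine on the same kinase, showed no such order of the groups. Its normalized log2 values were 11.86 and 11.55 unstimulated, 11.84 and 11.54 with IL-17, and 11.78 and 11.57 with IL-32. The 3 groups overlapped, with replicate 1 above replicate 2 in each. The difference from unstimulated cells was -0.03 ± 0.16 for IL-32 (95% interval -0.41 to 0.36; adjusted p = 0.996) and -0.01 ± 0.16 for IL-17 (interval -0.40 to 0.37; adjusted p = 0.997). Between IL-32 and IL-17 it was -0.01 ± 0.16 (interval -0.40 to 0.37). These intervals include a difference of the size fitted for Y199. With the replicate number as a block, the interval for IL-32 narrowed to -0.22 to 0.17, which leaves that size out, with an adjusted p of 0.997 (limma); whether the numbers pair the samples is not stated in the labels. In the authors' deposited table the values were 0.876 and 0.403 unstimulated, 0.865 and 0.367 with IL-17, and 0.714 and 0.463 with IL-32.

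Y199 was also set against Y188 within each array. Averaged over the 3 spots, the local background of Y199 was 0.959 to 1.12 times that of Y188, but at listed spot 1 it was 0.843 times on the unstimulated array of replicate 2 and 1.35 times on the IL-32 array of replicate 2. The ratio of mean net signal, Y199 over Y188, was 1.18 and 2.02 on the unstimulated arrays. It was 1.09 and 2.45 with IL-17, and 1.64 and 2.96 with IL-32. Under each replicate number the IL-32 array had the highest ratio, and over both numbers the groups overlapped. At listed spot 1 alone it was 2.77 and 5.82 with IL-32 against 0.815 and 1.64 unstimulated. At listed spot 2 it was 1.45 and 1.88 against 1.26 and 1.59, and at listed spot 3 it was 1.43 and 2.34 against 1.29 and 3.74. The change of Y199 exceeded that of Y188 by 0.35 on the normalized log2 scale for IL-32 against unstimulated cells and by 0.34 against IL-17, with no test of its own. The first of these was 0.08 without the first listed spot and 0.13 with the median of the spots.

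The groups overlapped for IKK-alpha T23. It was at 11.67 and 11.50 unstimulated, 11.65 and 11.61 with IL-17, and 11.75 and 11.44 with IL-32 on the normalized log2 scale. The IL-32 arrays enclosed the other 4. The difference from unstimulated cells was 0.01 ± 0.12 with IL-32 (95% interval -0.29 to 0.32; adjusted p = 0.996) and 0.05 ± 0.12 with IL-17 (interval -0.26 to 0.35; adjusted p = 0.997). Between the cytokines it was -0.03 ± 0.12 (interval -0.34 to 0.27; adjusted p = 0.997). In the authors' deposited table T23 was at 0.588 and 0.328 unstimulated, 0.613 and 0.485 with IL-17, and 0.632 and 0.219 with IL-32. The lowest of these came from the array on which 1 of its spots was below background. With plain subtraction floored at 1, the log2 differences were -1.47 ± 1.98 for IL-32, 0.63 ± 1.98 for IL-17 and -2.11 ± 1.98 between the cytokines, with an adjusted p of 1 each (limma).

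IKK-gamma has no fold in any comparison, because both peptides were below background on every array, and both are listed at the floor of 0.01 in the authors' deposited table. The ratio of foreground to background of S31 was 0.687 and 0.723 unstimulated, 0.776 and 0.670 with IL-17, and 0.588 and 0.608 with IL-32. Both IL-32 arrays were dimmer relative to background than the other 4 for this peptide, as for 6.71% of the 298 peptides by this ratio. For S43 the ratio was 0.515 and 0.445 unstimulated, 0.555 and 0.505 with IL-17, and 0.454 and 0.487 with IL-32. The unstimulated arrays overlapped those of each cytokine. The IL-32 arrays were below the IL-17 arrays by this ratio but above them on the normalized log2 scale (means 10.87 and 10.78). The share of the 298 peptides with such an order was not counted. S43 was among the darkest peptides printed: its net signal ranked 298 of 298 on the unstimulated array of replicate 2, and between 283 and 296 on the others. A reading below background limits what the array can show and does not show that the sites were unphosphorylated.

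By group means on the normalized scale, IKK-beta Y199 was at 12.23 ± 0.15 with IL-32, 11.91 ± 0.16 unstimulated and 11.90 ± 0.03 with IL-17 (SD, n = 2 each). The last 2 do not differ beyond their spread. The IL-32 mean was higher than these, but an SD of 2 arrays is a weak guide to spread. Its differences did not pass the adjusted threshold (limma, adjusted p = 0.996 against unstimulated cells and 0.997 against IL-17). IKK-beta Y188 was at 11.71 ± 0.22 unstimulated, 11.69 ± 0.21 with IL-17 and 11.68 ± 0.15 with IL-32, and no neighbours in that order differ beyond their spread. The same holds for IKK-alpha T23, at 11.63 ± 0.03 with IL-17, 11.60 ± 0.22 with IL-32 and 11.58 ± 0.12 unstimulated.

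Peptides with the most similar pattern were picked among the 187 others brighter than background on all 6 arrays, by the root mean square (RMS) difference of deviations from a peptide's own mean over the 6 arrays. For IKK-beta Y199 they were 2 peptides from IL2RB, a receptor chain for IL-2, at Y364 and Y536, with RMS differences of 0.099 and 0.11 on the log2 scale. The kinase PKR at T446, a sensor of double-stranded RNA, followed at 0.11. The median over all 187 was 0.21, and the RMS deviation of Y199 itself was 0.18. For IKK-beta Y188 they were the phosphatase Cdc25A at S82 (0.041), the adaptor DAPP1 at Y139 (0.069) and the MAP kinase kinase MEK2 at Y216 (0.078), against a median of 0.18. For IKK-alpha T23 they were the Src-inhibiting kinase CSK at Y184 (0.037), IκB-alpha at S32/36 (0.055) and the neurotrophin receptor TrkC at Y516 (0.057), against a median of 0.15. Likeness includes what peptides share on an array, such as position and background.

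The rest of the pathway was read from 24 peptides in 3 roles: 11 from adaptors and kinases upstream of IKK, 1 from the IKK-related kinase TBK1, and 12 from IκB proteins and NF-κB subunits. With limma 0 of the 24 passed the adjusted threshold in any comparison. With IL-32 against unstimulated cells 15 had a fold, 6 of them above 0 and 9 below, with a median log2 difference of -0.03. With the median of the spots 1 of the 15 was above 0, and without normalization between arrays none was. In these settings the median of all 298 peptides was at -0.02 and -0.24, respectively. In the fit reported here, over the 213 peptides of the array with a fold, the median was 0.00 and 48.4% were higher. With IL-17, 6 of 15 were higher and the median was -0.02, against 50.5% higher and a median of 0.00 over 214. For IL-32 against IL-17, 5 of 16 were higher with a median of -0.05, against 48.1% higher and a median of 0.00 over 212.

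Upstream of IKK, differences were small. IRAK1, the kinase recruited to Toll-like and IL-1 receptors, had 3 peptides with a fold. At T209 the log2 difference was 0.18 ± 0.12 for IL-17 against unstimulated cells, at T387 -0.13 ± 0.17 for IL-32 against unstimulated cells, and at T100 -0.07 ± 0.08 for IL-32 against IL-17. RIPK1, a kinase of the TNF receptor complex, gave 0.07 ± 0.10 at Y384/7/9 for IL-17. TBK1 at S172, a kinase related to IKK that drives interferon induction, gave 0.18 ± 0.13 for IL-32, and -0.12 with the median of its spots. Of the 6 upstream peptides with a fold, 3 were above 0 with IL-32 and 4 with IL-17. Leaving out 1 IL-17 array moved IRAK1 T209 to 0.06 (without replicate 2) or 0.31 (without replicate 1). The adjusted p was 0.996 or 0.997 for each named difference (limma).

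Among IκB proteins and NF-κB subunits, which IKK or other kinases phosphorylate, more peptides were lower than higher with either cytokine, and none passed. Of the 8 IκB and NF-κB peptides with a fold, 6 were lower with IL-32 (median -0.11) and 7 with IL-17 (median -0.09). Both counts share the unstimulated arrays, and the 7 include IκB-alpha S32/36 at -0.002. The IκB-alpha peptide at S32/36 covers the sites that IKK phosphorylates to mark this inhibitor for degradation; it is given for that role and was chosen after its values were seen. In the authors' deposited table it was at 0.396 and 0.330 unstimulated, 0.506 and 0.199 with IL-17, and 0.493 and 0.219 with IL-32. The groups overlapped, and the fitted log2 differences were 0.01 ± 0.10 for IL-32 and -0.00 ± 0.10 for IL-17. The corresponding IκB-beta peptide at T19/23 gave -0.28 ± 0.18 for IL-32 (adjusted p = 0.996). In the authors' deposited table it was at 1.07 and 1.32 unstimulated and 1.11 and 0.516 with IL-32, so the IL-32 arrays fell on either side of the first unstimulated one. Without the IL-32 array of replicate 2 the difference was -0.07, and without that of replicate 1 it was -0.46.

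The NF-κB subunit p65 at S536, which IKK can phosphorylate, was lowest on the IL-32 arrays, where IKK-beta Y199 was highest. In the authors' deposited table it was at 1.91 and 1.86 unstimulated, 1.62 and 2.32 with IL-17, and 1.19 and 1.35 with IL-32. Both IL-32 arrays lay below the other 4, as for 5.03% of the 298 peptides in that table. Its log2 difference from unstimulated cells was -0.58 ± 0.15 (limma, unadjusted p = 0.0079, adjusted p = 0.996), and 0.01 with foreground divided by background. The precursor p105 at S337 was at 0.511 and 0.766 unstimulated, 0.531 and 0.299 with IL-17, and 0.112 and 0.0926 with IL-32 in the authors' deposited table, again lowest on both IL-32 arrays. Its difference was -0.32 ± 0.08 (limma, unadjusted p = 0.0087, adjusted p = 0.996). It was -0.22 with foreground divided by background, -0.87 without background subtraction, -2.62 with the authors' deposited values and -6.14 with plain subtraction. On the IL-32 arrays its mean foreground was only 1.08 and 1.06 times its mean background, so the differences after subtraction rest on values near the floor. These unadjusted p-values ranked 1 and 2 of 298, and the peptides were named for their small p. RelB at S573, a subunit of the non-canonical pathway, gave -0.09 ± 0.10 for IL-17 (adjusted p = 0.997).

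**Figure D5:**
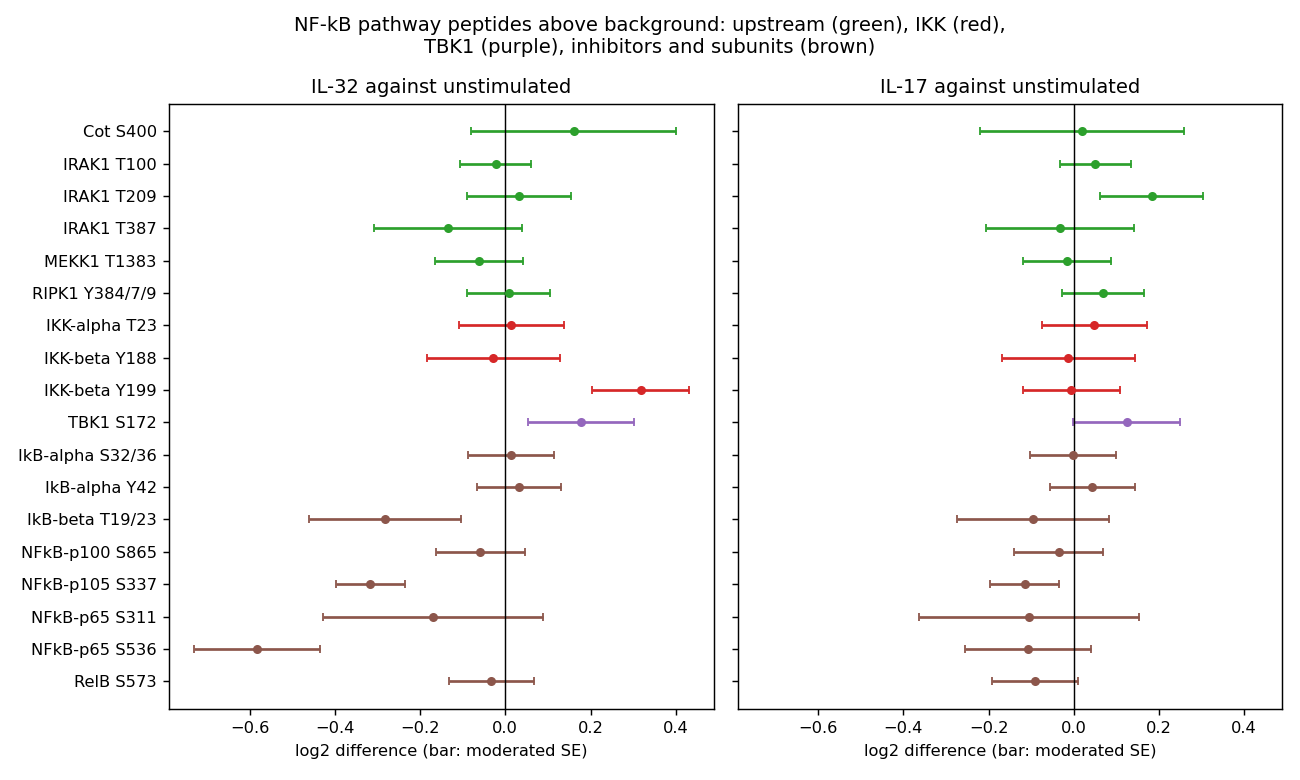
Log2 difference from unstimulated cells (x axis, bar: moderated SE of the fit) for the 18 peptides with a fold in both comparisons (y axis), with IL-32 on the left and IL-17 on the right. Colours mark upstream kinases, IKK, TBK1, and IκB or NF-κB peptides. With IL-32, IKK-beta Y199 (0.32) lies farthest to the right and p65 S536 (-0.58) farthest to the left; no peptide passed the adjusted threshold.

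At the criteria in the study's design text, over 1.5-fold and p under 0.06, 0 of the 5 IKK peptides and 0% of all 298 passed in each comparison. With plain background subtraction floored at 1, IKK-beta Y199 met them for IL-32 against unstimulated cells (log2 difference 0.60, unadjusted p = 0.038 in limma). Without normalization between arrays it met them for IL-32 against IL-17 (0.76), and both IKK-beta peptides met them for IL-17 against unstimulated cells (-0.60 at Y188 and -0.67 at Y199), where the median of all peptides was at -0.59. With the authors' deposited values no IKK peptide met them.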

How the data were processed

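Each of the 6 samples was read on 1 peptide array with 3 spots per peptide. Per the file headers, the deposited per-array values are intensities: mean foreground and mean local background at 532 nm, neither subtracted nor normalized. The authors' deposited value table holds a linear signal. Set against the arrays, it equals foreground minus background, averaged over the 3 spots and divided by the array's 80th percentile, with a floor of 0.01. For the scanner and image software, the sources used here give no name.

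Here, intensities were corrected with limma's normexp (offset 50), 2 non-human peptides were left out, spots were quantile-normalized on the log2 scale, and the 3 spots were averaged. Differences in the text are on this log2 scale, relative to the other peptides of the arrays. The 298 peptides were compared in 1 model of limma 3.58.1 (R 4.3.3) with the 3 groups and no block; two-sided p-values were adjusted by Benjamini-Hochberg, with a threshold of 0.05. Errors beside differences are its moderated standard errors, and intervals are 95% intervals of the same fit. A peptide not brighter than its background on any array of a group has no fold. The number of arrays limits the precision.

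The IKK peptides were taken by name. The list of 24 other pathway peptides, named by the smallest unadjusted p (up to 4 per role), was written from gene symbols, and members and lists were chosen with earlier results of these data known. The peptides most like a member were the 3 with the smallest root mean square difference of centred values. Alternatives covered background correction, normalization, the spots used, a filter on dim peptides, the samples in the fit, a replicate block, and the authors' values. Peptide sequences were not used here.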

Additional observations from a re-analysis of the deposited data

How the results depend on the processing

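The number of arrays (2 per group) and signal near background limit these values, and the cause of a shift between settings was not tested. The log2 difference of IKK-beta Y199 with IL-32 was above 0 in all 21 alternatives. It ran from 0.05 to 0.60 against unstimulated cells and from 0.13 to 0.76 against IL-17. That count is a weak check, because some alternatives left both differences at 0.32. These were the dim-peptide filter, the replicate block, keeping non-human peptides, and a model without the uncompared group. Leaving out 1 array of the uncompared group gave 0.32 to 0.33. Against unstimulated cells the lowest values, 0.05 to 0.07, were below their SE (0.10 to 0.16). Leaving out any 1 array gave 0.20 to 0.43 against unstimulated cells and 0.22 to 0.40 against IL-17. The Y199 difference passed the adjusted threshold once, against IL-17 without normalization between arrays (0.76; limma, adjusted p = 0.042).

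Without that normalization the median of all peptides shifted by -0.24 for IL-32 and -0.59 for IL-17 against unstimulated cells, and by 0.36 between the cytokines. Relative to the shift, Y199 was at 0.33, -0.08 and 0.40. As fitted, IKK-alpha T23 was then at -0.20, -0.53 and 0.34, Y199 at -0.67 and IKK-beta Y188 at -0.60 for IL-17, and Y188 at 0.38 between the cytokines. IRAK1 T209 was at -0.51, RIPK1 at -0.59 and RelB at -0.69 for IL-17, IRAK1 T100 at 0.29 between the cytokines, and TBK1 at -0.019 for IL-32. The peptides past the adjusted threshold were 293 for IL-17 and 4 between the cytokines, and 153, 17 and 3 met the study's criteria for IL-17, between the cytokines and for IL-32. No pathway peptide was higher with either cytokine, and all 16 were higher with IL-32 than with IL-17.

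Signs of differences near 0 varied with background handling. Without background subtraction T23 was at -0.058 for IL-32, -0.091 for IL-17 and 0.033 between the cytokines, Y188 at 0.17, 0.12 and 0.049, and for IL-17 Y199 was at 0.10 and RIPK1 at -0.10; 10, 1 and 8 peptides met the study's criteria. With plain subtraction T23 was at -1.47 for IL-32, 0.63 for IL-17 and -2.11 between the cytokines, p105 at -6.14 for IL-32, Y199 at 0.075 for IL-17 and IRAK1 T100 at 0.13 between the cytokines; 3, 4 and 4 peptides met the criteria and 1 passed the adjusted threshold between the cytokines. With foreground over background T23 was at -0.0060, p65 S536 at 0.0088 and TBK1 at -0.074 for IL-32, and IRAK1 T209 at -0.048 for IL-17. With the authors' values T23 was at -0.24 for IL-32, 0.31 for IL-17 and -0.55 between the cytokines, p105 at -2.62 for IL-32 and Y188 at 0.030 between the cytokines; 3, 1 and 3 peptides met the criteria. A normexp offset of 10 gave 1 for IL-32. Median scaling put Y188 at 0.012 for IL-32 and 0.043 between the cytokines, and RIPK1 at -0.019 for IL-17.

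With the median of the spots 1 of 15 pathway peptides was higher with IL-32, T23 was at 0.016 between the cytokines and TBK1 at -0.12 for IL-32. Without listed spot 1, T23 was at 0.025 and Y188 at 0.038 between the cytokines. Without spot 2, Y188 was at 0.049 for IL-32, 0.014 for IL-17 and 0.035 between the cytokines, and Y199 at 0.025 for IL-17. Without spot 3, T23 was at -0.075 for IL-32, and Y188 at 0.00027 and Y199 at 0.069 for IL-17. Without spot 3, 3 of 16 pathway peptides were higher with IL-32 than with IL-17. Leaving out spot 3 gave 1 peptide at the criteria for IL-32 and 1 between the cytokines, and leaving out spot 2 gave 1 between the cytokines.

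Leaving out 1 array gave T23 at -0.14 to 0.17 for IL-32, -0.033 to 0.13 for IL-17 and -0.18 to 0.12 between the cytokines. It gave Y188 at -0.18 to 0.13, -0.17 to 0.14 and -0.17 to 0.14, and Y199 at -0.12 to 0.11 for IL-17. RIPK1 was at -0.035 to 0.17 for IL-17, lowest without the IL-17 array of replicate 2, and IRAK1 T387 at -0.30 to 0.018 for IL-32, highest without the IL-32 array of replicate 1. IRAK1 T209 was at 0.06 to 0.31 and RelB at -0.14 to -0.05 for IL-17, lowest and highest without 1 of the IL-17 arrays, as was IRAK1 T100 between the cytokines (-0.15 to -0.0021). IκB-beta T19/23 was at -0.46 to -0.07 and TBK1 at 0.10 to 0.23 for IL-32, lowest and highest without 1 of the IL-32 arrays. The study's criteria were then met by 1 to 3 peptides for IL-32, 0 to 2 for IL-17 and 0 to 1 between the cytokines; the highest counts for IL-32 and IL-17, 3 and 2, came without the unstimulated array of replicate 1.

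With the replicate number as a block, IKK-beta Y199 stayed at 0.32 ± 0.12 for IL-32 (limma, adjusted p = 0.997) and no call changed; 8, 4 and 10 peptides had an unadjusted p under 0.05 for IL-32, for IL-17 and between the cytokines, against 4, 0 and 4. Deviations from group means correlated by 0.18, 0.022 and 0.39 between arrays of the same number, over 298 peptides. These values do not settle whether the numbers pair the samples. Arrays of the same number share a leading digit in their deposited names, but the labels do not state a shared day or batch. The block was therefore kept as an alternative.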
